A study of Mus musculus with 6 samples.

Results

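The 45 genes described here encode the machinery that carries the signal of lipopolysaccharide (LPS) from the macrophage surface to the NF-κB transcription factors. They were taken by symbol from the deposited tables, and all 45 of 45 were found among 23935 gene symbols. By role they are 8 LPS co-receptors and Toll-like receptor (TLR) adaptors, 8 IRAK kinases and TRAF proteins, 12 genes of the TAK1, IKK and TBK1 kinase complexes with the IRF factors they act on, 5 NF-κB subunits, 10 IκB proteins and other inhibitors, and 2 receptors of tumour necrosis factor (TNF).

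LPS is handed by CD14 to TLR4 and its partner MD-2. The adaptors MyD88 and TIRAP then recruit IRAK kinases and TRAF6, which activate the kinase TAK1, and TAK1 activates the IKK complex. IKK marks IκB proteins for degradation and so frees NF-κB dimers to enter the nucleus, where they also switch on genes of their own inhibitors. From endosomes, TRAM and TRIF lead through TRAF3, TBK1 and IKKε to the interferon regulatory factor IRF3. Most of these steps run on phosphorylation, ubiquitin and protein decay, none of which is read by RNA levels.

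RNA was sequenced from bone marrow-derived macrophages (BMDMs), which are grown from marrow cells with M-CSF for 7 days. There were 3 libraries from PKM2FL/FL mice and 3 from PKM2ΔMAC mice, numbered as mice 1 to 3 in the labels. Both genotypes carry floxed Pkm alleles. The PKM2ΔMAC mice add LysM-Cre, a recombinase expressed from the Lyz2 gene of myeloid cells, and the PKM2FL/FL littermates lack it, so presence of Cre and loss of PKM2 cannot be told apart. Per the labels all 6 cultures received LPS (10 ng/mL) together with IFN-γ (25 ng/mL) over 16 h, and the ages of the marrow donors are not given in the sources used here. The study's methods name male mice as donors of the BMDMs used in flow cytometry and do not state the sex for the sequenced cultures. The study used the comparison to ask how PKM2, a pyruvate kinase of glycolysis, bears on inflammatory activation of macrophages.

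Totals of 49957449 to 54524651 counts per library were scaled by the TMM method to a common library total (CPM) and tested between genotypes by the quasi-likelihood method of edgeR. In replicates 1 to 3, Pkm, the targeted gene, had 1714, 1698 and 1706 CPM in PKM2FL/FL and 987, 1212 and 1005 CPM in PKM2ΔMAC, and Lyz2 read 17006 to 18721 CPM against 24.3 to 31.8 CPM. The lower Lyz2 level was found in all PKM2ΔMAC libraries, which hold Cre at this locus, and its cause was not tested. Macrophage markers were abundant in every library, with summed levels of 6734 to 6958 CPM in PKM2FL/FL and 6799 to 7590 CPM in PKM2ΔMAC, and 1 of 7 was called, Itgam, at a log2 fold change of 0.43 (edgeR adjusted p = 0.00272). Stromal collagen and PDGF receptor markers summed to 5047 to 5632 and 5060 to 6349 CPM, with 0 of 5 called by edgeR (2 higher at an unadjusted p under 0.05). Of 16 genes listed as responding to LPS and IFN-γ, 4 had a mean under 1 CPM (Nos2, Il12b, Il6 and Cxcl9), and the list summed to 190 to 255 CPM per library, with Ciita, at 48.9 to 99.0 CPM, and Irf1 the highest in CPM. Levels of the defining genes go against the treatment label. Nos2 read at most 0.490 CPM, Il12b at most 0.112, Il6 at most 0.328, Cxcl9 at most 0.911 and Il1b at most 2.95 CPM, while Tnf read 11.0 to 19.5 and Irf1 53.6 to 56.8 CPM. The series has no untreated library to compare with, so the levels below are those of cultures labelled as primed. PKM2ΔMAC replicate 2 stood apart. Counts of the other 2 PKM2ΔMAC libraries differed by a chi-square per degree of freedom of 11.0, and both differed from it by 48.0 and 60.1, where pairs of control libraries gave 8.14 to 15.01.

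Short upstream sequences are shown for 4 members that belong to the feedback of the pathway, where NF-κB acts on genes of its own inhibitors and subunits. The stretches are the 250 bases before the RefSeq transcription start on GRCm38.p6, 5′ to 3′ on the strand of the gene. Capitals mark matches to the κB consensus, the binding motif of NF-κB, on either strand, with overlapping matches joined. The first is Nfkbia at chr12:55492648-55492897 (minus strand), which encodes IκBα. It holds 1 match, 20 to 29 bases before the start.
Nfkbia: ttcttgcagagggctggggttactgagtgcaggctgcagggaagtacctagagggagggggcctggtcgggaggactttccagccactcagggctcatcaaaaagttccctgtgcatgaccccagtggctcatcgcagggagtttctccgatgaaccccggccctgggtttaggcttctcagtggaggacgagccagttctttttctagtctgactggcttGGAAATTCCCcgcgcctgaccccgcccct
Tnip1, which encodes ABIN1, a partner of the ubiquitin-editing enzyme A20, is shown at chr11:54962941-54963190 (minus strand). Its 3 overlapping matches form 1 run, 47 to 58 bases before the start.
Tnip1: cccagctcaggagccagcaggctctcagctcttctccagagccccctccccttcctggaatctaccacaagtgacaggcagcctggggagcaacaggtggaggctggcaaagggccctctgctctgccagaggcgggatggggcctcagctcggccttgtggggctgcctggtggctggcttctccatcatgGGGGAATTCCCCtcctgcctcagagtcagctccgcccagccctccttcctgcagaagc
Rel, which encodes the c-Rel subunit, is shown at chr11:23770970-23771219 (minus strand). Its run lies 82 to 92 bases before the start.
Rel: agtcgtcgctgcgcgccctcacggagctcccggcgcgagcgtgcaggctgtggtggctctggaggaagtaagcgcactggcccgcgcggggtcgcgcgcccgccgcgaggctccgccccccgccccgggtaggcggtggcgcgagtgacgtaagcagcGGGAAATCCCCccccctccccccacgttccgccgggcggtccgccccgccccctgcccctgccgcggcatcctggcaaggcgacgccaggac
Nfkbie, which encodes IκBε, is shown at chr17:45555450-45555699 (plus strand). Its match lies 97 to 106 bases before the start.
Nfkbie: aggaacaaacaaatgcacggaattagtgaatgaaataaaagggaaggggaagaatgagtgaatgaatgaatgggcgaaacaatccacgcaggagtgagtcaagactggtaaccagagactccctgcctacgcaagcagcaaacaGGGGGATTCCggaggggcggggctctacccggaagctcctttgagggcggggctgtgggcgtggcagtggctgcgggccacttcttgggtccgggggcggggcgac
Traf1 is the member whose log2 fold change lay furthest from 0 with edgeR over all 6 libraries. Its stretch at chr2:34961773-34962022 (minus strand) is shown as well. These letters hold 0 matches to the consensus. Sites further away or with other letters were not searched, so this does not show that NF-κB leaves the gene alone.
Traf1: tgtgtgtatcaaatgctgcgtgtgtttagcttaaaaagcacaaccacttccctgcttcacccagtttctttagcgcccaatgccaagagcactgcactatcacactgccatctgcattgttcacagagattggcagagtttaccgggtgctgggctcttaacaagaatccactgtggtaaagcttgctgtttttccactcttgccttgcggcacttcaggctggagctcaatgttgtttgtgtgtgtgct

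RefSeq stretches were at hand for 35 of the 45 members. Of these, 11 held a κB consensus match (31.4%), against 1219 of 11439 tested genes with such a stretch (10.7%) and 2225 of all 27025 genes with one (8.23%). The matches are listed by role, and a difference between roles was not tested. They occurred upstream of 6 of 9 inhibitors (Nfkbia, Nfkbid, Nfkbie, Tnfaip3, Tnip1 and Cyld, with the stretch of Tnfaip3 inside its longer GENCODE gene model), 2 of 3 NF-κB subunits (Rel and Nfkb2), 2 of 8 IRAK and TRAF genes (Irak1 and Traf3) and 1 of 9 kinase and IRF genes (Map3k7). None of the 4 adaptor genes and neither of the 2 TNF receptor genes with a stretch held one. The motif TGANTCA, bound by AP-1, occurred upstream of 4 of the 35 members (11.4%) and 6.0% of tested genes. A pair of GAAA cores 2 bases apart, bound by IRF factors, occurred upstream of 2 of 35 (5.71%) and 3.39% of tested genes. All were searched on both strands, a gene with several starts was counted once, and a match is a string of letters, not an observed binding site.

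**Figure D1:**
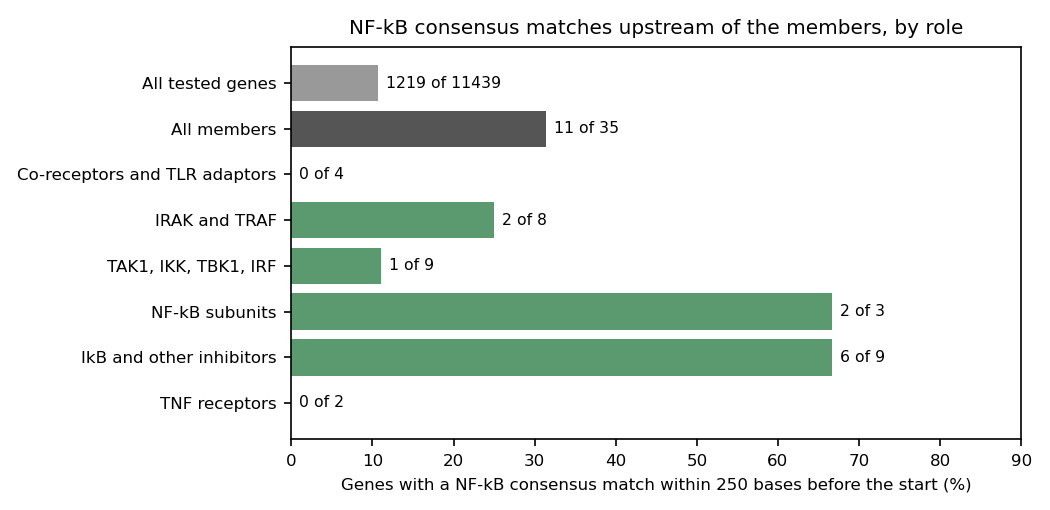
Share of genes with at least 1 κB consensus match in the 250 bases before a RefSeq start, in percent, for all tested genes, all members and the members of each role. The labels give genes with a match and genes with a sequence. The share is 10.7% over all tested genes and 66.7% for inhibitors and for NF-κB subunits, the latter from 3 genes.

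Levels between genes were compared as deposited TPM, which are per transcript length. Every member was detected in every library and all 45 passed edgeR's filter on low counts. Mean TPM over the 6 libraries ran from 3.57 for Traf1 to 951 for Unc93b1, with a median of 44.9 TPM. The median over all 16516 genes tested was 12.5 TPM, and of the members Traf1 and Tab3 lay below it. The membrane proteins and endosomal chaperone led the list, with Unc93b1 at 951, Cd14 at 847, Tnfrsf1b at 670 and Tnfrsf1a at 307 TPM. Ranges of Unc93b1 (895 to 1017) and Cd14 (727 to 1049) over the libraries overlapped, and so did not set an order between them.

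**Figure D2:**
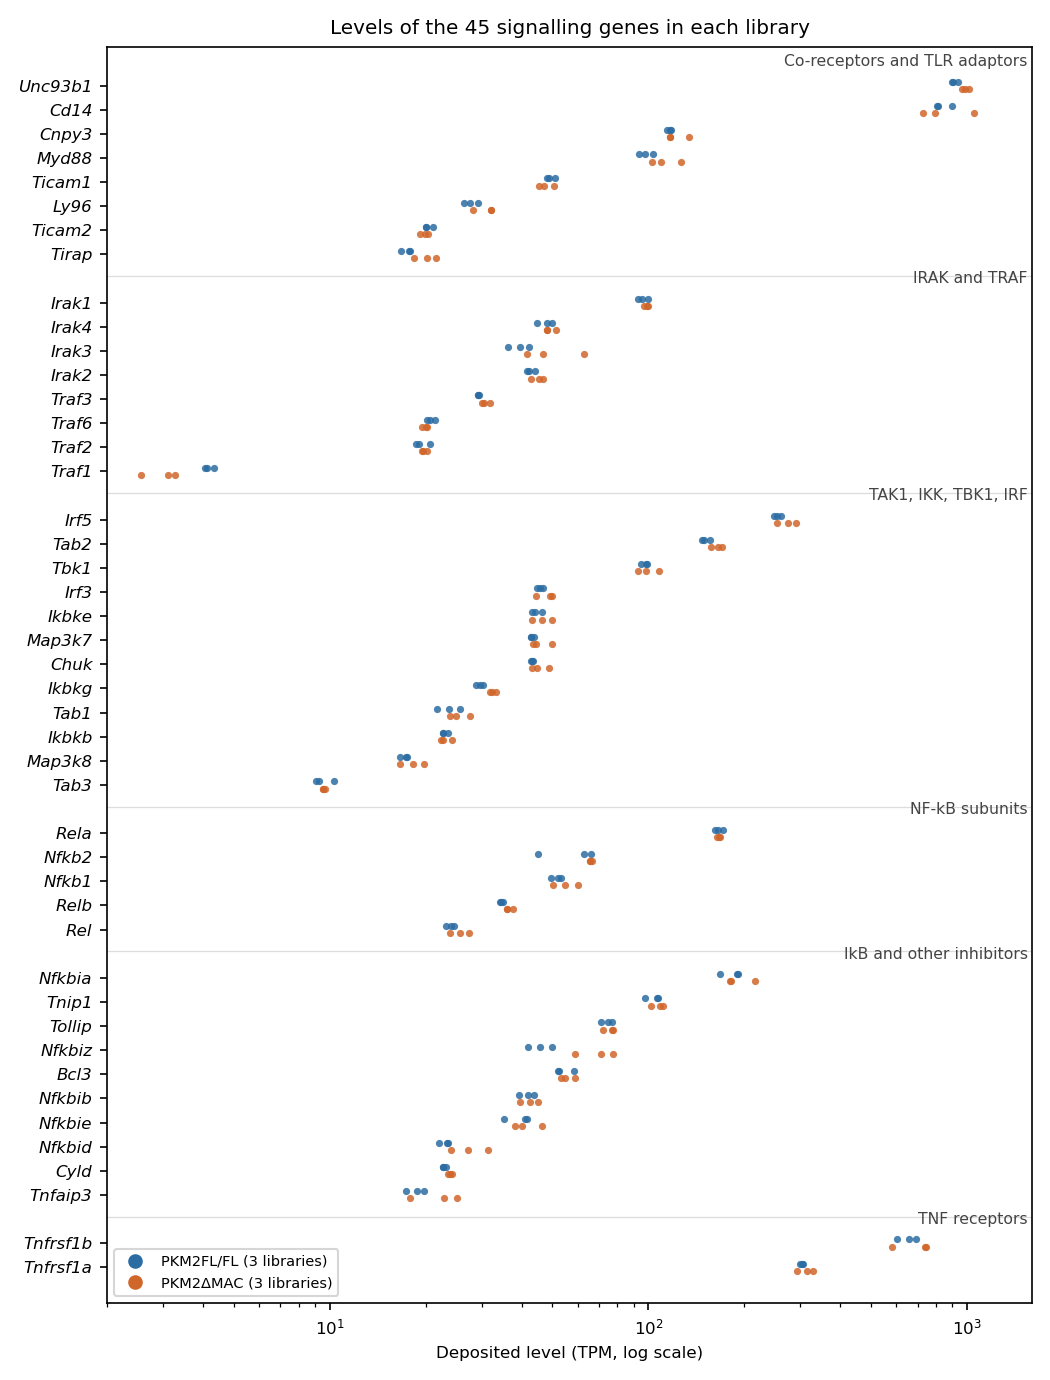
Deposited TPM (log scale) of the 45 members in each of the 6 libraries, by role and then by mean level. Blue points are PKM2FL/FL and orange points PKM2ΔMAC libraries. Points of both genotypes lie on each other for most members, Traf1 is lowest at 2.56 to 4.33 TPM, and Traf1 and Nfkbiz show the clearest gap between genotypes.

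No member was called at an edgeR adjusted p under 0.05. Over all genes 68 of 16516 were (0.412%, with 0.285% higher and 0.127% lower), so a count of 0 among 45 is no result about the members. At an unadjusted p under 0.05 there were 3 members, against 9.83% of all genes. Of these Nfkbiz was higher in PKM2ΔMAC, as were 5.24% of all genes, and Traf1 and Traf6 were lower, as were 4.6%. DESeq2 called 2 members, Nfkbiz and Traf1, where it called 302 genes in all (1.83%). The genotypes did not overlap for 7 members, with Unc93b1 and Nfkbiz higher and Ticam2, Traf1, Traf6, Ikbkb and Rela lower, where 17.2% of all tested genes did not overlap, 8.92% higher and 8.32% lower.

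For most members the differences were small and closely bounded. Log2 fold changes, given throughout as PKM2ΔMAC over PKM2FL/FL, were positive for 25 members and negative for 20, with a median of 0.0033 against -0.0002 over all genes. On the deposited TPM 41 were positive and 4 negative, with a median of 0.073 against 0.063 over all genes, so the sign of a small fold change below is that on the TMM scale. For 34 members the fold change was within 0.1 of 0. The 95% interval lay within a change of 1.25-fold either way for 38 of the 45 members, and for 46.5% of all genes tested, a bound chosen after the values were seen. Those outside it were Traf1, Nfkbiz, Irak3, Nfkb2, Nfkbid, Tnfaip3 and Cd14. The median standard error (SE) was 0.054 for the members and 0.107 for all genes. The members were also more abundant, at a median of 44.9 TPM against 12.5 TPM. Genes of like level were not compared, so these differences in precision are not read as a trait of the pathway. The spread between libraries of the same genotype, as a pooled coefficient of variation of CPM, had a median of 4.74% for the members and 9.0% for all genes. It was narrowest for Traf3 (1.23%) and widest for Tnfaip3 (15.8%).

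**Figure D3:**
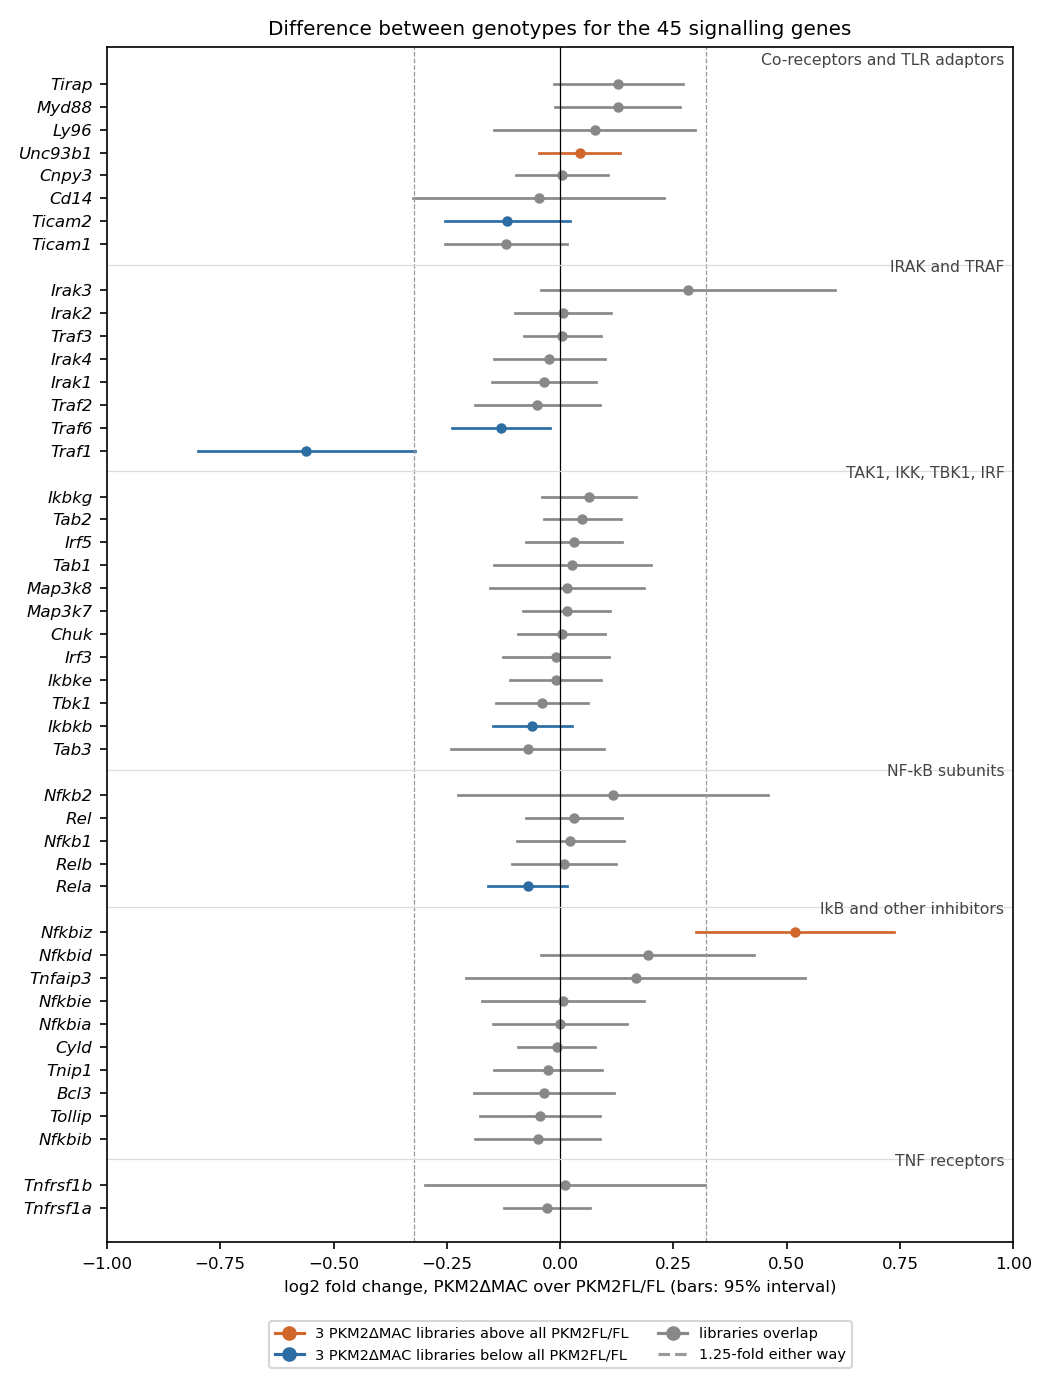
Log2 fold change of each member, PKM2ΔMAC over PKM2FL/FL, with its 95% interval from edgeR's fit, by role. Orange and blue mark members whose PKM2ΔMAC libraries all lay above or all below the PKM2FL/FL libraries, and dashed lines mark 1.25-fold either way. The 3 intervals that leave out 0 are those of Traf1 (-0.80 to -0.32), Traf6 (-0.24 to -0.02) and Nfkbiz (0.30 to 0.74).

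Among the co-receptors and adaptors, fold changes ran from -0.12 to 0.13. Cd14, always in the order of replicates 1 to 3, read 403, 438 and 404 CPM in PKM2FL/FL and 378, 476 and 350 CPM in PKM2ΔMAC. The PKM2ΔMAC values lay on both sides of the control values, and the log2 fold change was -0.05, with an interval of -0.32 to 0.23. Without PKM2ΔMAC replicate 2 it was -0.19 and the genotypes did not overlap. Ly96, which encodes MD-2, read 7.79 to 8.52 CPM in PKM2FL/FL and 7.90 to 9.09 CPM in PKM2ΔMAC.

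Of the adaptors, Myd88 and Tirap had positive and Ticam1 and Ticam2 negative log2 fold changes, none past the test. A difference between the MyD88 and TRIF branches was not tested. Myd88 read 72.4, 75.2 and 69.2 CPM in PKM2FL/FL and 77.7, 85.4 and 73.6 CPM in PKM2ΔMAC. The log2 fold change was 0.13 (SE 0.060, edgeR adjusted p = 0.539), and 1 PKM2ΔMAC library lay within the control range. Tirap, whose product brings MyD88 to TLR4, read 25.5, 24.6 and 23.6 CPM against 27.4, 27.9 and 25.2 CPM. Its log2 fold change was also 0.13 (SE 0.063, edgeR adjusted p = 0.547), again with 1 library inside the control range. Without PKM2ΔMAC replicate 2 the values were 0.067 for Myd88 and 0.10 for Tirap. In GENCODE M21, exons on the opposite strand share 290 bases of Myd88 (11.3%, Acaa1a) and 446 bases of Tirap (9.0%, Gm39318). Acaa1a had a log2 fold change of -0.08, and Gm39318, at 0 to 19 counts per library, was not tested.

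Ticam1, which encodes TRIF, read 42.0, 40.5 and 43.7 CPM in PKM2FL/FL and 41.6, 36.8 and 37.7 CPM in PKM2ΔMAC. The log2 fold change was -0.12 (SE 0.059, edgeR adjusted p = 0.558), and the genotypes overlapped. Ticam2, which encodes the bridging adaptor TRAM, read 33.5, 32.8 and 35.2 CPM against 31.7, 29.1 and 32.8 CPM. All 3 PKM2ΔMAC values were below the control values (the closest pair at 32.80 and 32.85 CPM), with a log2 fold change of -0.12 (SE 0.060, edgeR adjusted p = 0.578, two-sided p = 0.10 in an exact permutation test, the lowest that 3 libraries against 3 allow). In GENCODE M21 the exons of Ticam2 share 838 bases, 14.5% of their length, with Tmed7 on the same strand, and how the authors counted shared reads is not given in the sources used here. Tmed7 itself had a log2 fold change of 0.02. Without PKM2ΔMAC replicate 2 the values were -0.083 for Ticam1 and -0.068 for Ticam2. On the TPM values, with the median of all genes at 0.063, they were -0.048 and -0.043 (Ticam2 then overlapping between the genotypes), and 0.20 for Myd88 and 0.19 for Tirap.

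Values of the chaperones of the Toll-like receptors lay within narrow limits. Unc93b1, which carries the nucleic acid-sensing receptors to endosomes, read 782, 801 and 788 CPM in PKM2FL/FL and 807, 808 and 829 CPM in PKM2ΔMAC. Its PKM2ΔMAC libraries were all higher, by a log2 fold change of 0.04 with an interval of -0.05 to 0.13 (edgeR adjusted p = 0.784, exact permutation p = 0.10). Cnpy3, a chaperone of the endoplasmic reticulum, read 87.6 to 89.7 and 85.6 to 93.5 CPM.

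Traf1 had the lowest level of the IRAK and TRAF genes. Its log2 fold change lay furthest from 0 of all members with edgeR over all 6 libraries. Nfkbiz lay further from 0 with limma-trend on log2(TPM + 1) (0.58 against -0.38 for Traf1) and without PKM2ΔMAC replicate 3 (0.61 against -0.48). Traf1 lies on the minus strand of chromosome 2 from 34941750 to 34961772 of GRCm38, and its product, unlike the other TRAF proteins here, lacks the RING domain of a ubiquitin ligase. Counts on it were between 311 and 588 per library. It read 11.0, 10.1 and 10.4 CPM in PKM2FL/FL and 7.56, 7.54 and 6.27 CPM in PKM2ΔMAC, so the genotypes were apart. The change in level was -32.2% (interval -42.5% to -19.9%), with a log2 fold change of -0.56 (SE 0.105, unadjusted p = 0.00056, edgeR adjusted p = 0.0864, exact permutation p = 0.10). It missed the threshold over all genes with edgeR and passed it with DESeq2 (adjusted p = 0.000677), with no filter on low counts (0.0393) and without PKM2ΔMAC replicate 2 (log2 fold change -0.60, 0.0231). Over all alternatives the adjusted p ran from 0.000677 to 0.412 and the fold change from -0.60 to -0.38.

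The summed level of neutrophil markers did not overlap between the genotypes, although no single marker passed the test. It was 20.3 to 48.8 CPM in PKM2FL/FL and 90.1 to 170 CPM in PKM2ΔMAC, 8 of 8 had a positive fold change, edgeR called 0 (5 at an unadjusted p under 0.05), and none was at 0 in any library. S100a9, the highest of them in TPM, read at most 12.3 CPM in PKM2FL/FL and 19.8 to 44.7 CPM in PKM2ΔMAC. In bulk RNA, a change in the number of cells of a type and a change of RNA per cell cannot be told apart. The part of these cells in the values of Traf1 and Nfkbiz was not tested.

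Traf6, the ubiquitin ligase of the MyD88 branch, lies on the plus strand of chromosome 2 from 101678429 to 101701669. It read 45.9, 45.8 and 48.5 CPM in PKM2FL/FL and 42.4, 41.6 and 44.2 CPM in PKM2ΔMAC. All PKM2ΔMAC libraries were lower, by a log2 fold change of -0.13 (SE 0.047, interval -0.24 to -0.02, unadjusted p = 0.0231, edgeR adjusted p = 0.413, exact permutation p = 0.10). On the TPM values the fold change was -0.055, where the median of all genes was 0.063. Traf2, which serves the TNF receptors, read 27.4 to 29.8 and 26.0 to 28.3 CPM. Traf3, on the branch to IRF3, read 60.3 to 61.9 and 61.0 to 62.2 CPM and had the narrowest spread of the members.

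The kinases Irak1, Irak2 and Irak4 had log2 fold changes of -0.04, 0.01 and -0.02. Irak1, the most abundant of them at 97.2 TPM, read 136, 124 and 129 CPM in PKM2FL/FL and 129, 120 and 130 CPM in PKM2ΔMAC. On the TPM values its fold change was 0.036, where the median of all genes was 0.063 against -0.0002 on counts. Irak3 encodes IRAK-M, which restrains the other IRAK kinases. It read 38.5, 43.7 and 41.6 CPM in PKM2FL/FL and 47.3, 60.7 and 42.5 CPM in PKM2ΔMAC. Replicate 2 stood above the rest and replicate 3 lay inside the control range, and the log2 fold change of 0.28 (SE 0.134, edgeR adjusted p = 0.560) had an interval of -0.04 to 0.61. Without PKM2ΔMAC replicate 2 the log2 fold change was 0.12. Irak3 and Tbk1 lie 2.86 and 4.26 Mb from Lyz2, the locus that holds Cre, on chromosome 10. Any bearing of this distance on their values was not tested.

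The TAK1, IKK and TBK1 complexes with IRF3 and IRF5 differed little, with fold changes from -0.07 to 0.06 and intervals of all 12 genes within 1.25-fold. Map3k7, which encodes TAK1, read 78.7 to 79.5 CPM in PKM2FL/FL and 77.5 to 83.9 CPM in PKM2ΔMAC. Its partner Tab2, at 158 TPM, read 260 to 269 and 269 to 279 CPM, with a log2 fold change of 0.05. Tab3, an alternative partner and the least abundant of the group at 9.56 TPM, read 19.7, 17.4 and 17.3 CPM against 17.4, 16.8 and 17.5 CPM. The genotypes overlapped there, with 1 control library above the other 5. Tab1, a further partner, had a log2 fold change of 0.03 with an interval of -0.15 to 0.20. Map3k8, which encodes TPL2 of the ERK branch, read 20.8 to 24.6 CPM.

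Of the IKK subunits, Ikbkb encodes the kinase that marks IκB proteins. It read 124, 122 and 128 CPM in PKM2FL/FL and 117, 121 and 120 CPM in PKM2ΔMAC. All 3 PKM2ΔMAC values were lower, by a log2 fold change of -0.06 (SE 0.038, edgeR adjusted p = 0.655, exact permutation p = 0.10). On the TPM values the fold change was 0.011, where the median of all genes was 0.063. Chuk, which encodes IKKα, had a log2 fold change of 0.00 with an interval of -0.09 to 0.10. Ikbkg, which encodes the scaffold NEMO, read 67.4 to 70.3 CPM in PKM2FL/FL, with a log2 fold change of 0.06 and an interval of -0.04 to 0.17.

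On the branch to interferon regulatory factors, Tbk1 read 107 to 111 CPM in PKM2FL/FL and 100 to 111 CPM in PKM2ΔMAC. Ikbke, which encodes the related kinase IKKε, read 112 to 118 and 108 to 118 CPM. Irf3 read 44.4 to 45.4 and 42.0 to 46.9 CPM. Irf5, a factor downstream of MyD88 and the most abundant of this group at 263 TPM, read 218, 208 and 206 CPM against 220, 221 and 204 CPM. Its log2 fold change was 0.03 with an interval of -0.07 to 0.14 (edgeR adjusted p = 0.880).

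Among the NF-κB subunits, Rela, which encodes p65, was the most abundant at 166 TPM and did not share its range with the next. It read 147, 148 and 142 CPM in PKM2FL/FL and 141, 135 and 140 CPM in PKM2ΔMAC. The PKM2ΔMAC libraries were all lower, by a log2 fold change of -0.07 (SE 0.038, interval -0.16 to 0.01, edgeR adjusted p = 0.586, exact permutation p = 0.10), and on the TPM values the fold change was 0.00045, where the median of all genes was 0.063. Rel, the least abundant at 24.8 TPM, read 51.5, 51.6 and 49.6 CPM against 52.9, 53.5 and 49.5 CPM, with a log2 fold change of 0.03. Nfkb1 and Relb, which encode p105/p50 and RelB, had log2 fold changes of 0.02 and 0.01, and Relb read 38.4 to 38.5 CPM in the 3 control libraries.

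Nfkb2, which encodes p100 and p52 of the alternative pathway, was less precise. It read 82.8, 85.3 and 59.4 CPM in PKM2FL/FL and 83.2, 79.9 and 83.6 CPM in PKM2ΔMAC. The value of PKM2FL/FL replicate 3 lay below the other 5, and the log2 fold change of 0.12 had an interval of -0.22 to 0.46. Its exons share 531 bases with the lncRNA gene AC114539.1, not analysed here, and 299 bases with Psd, both on the opposite strand. Psd was likewise lowest in that library, at 7.62 CPM against 10.0 and 11.5 CPM in the other controls.

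**Figure D4:**
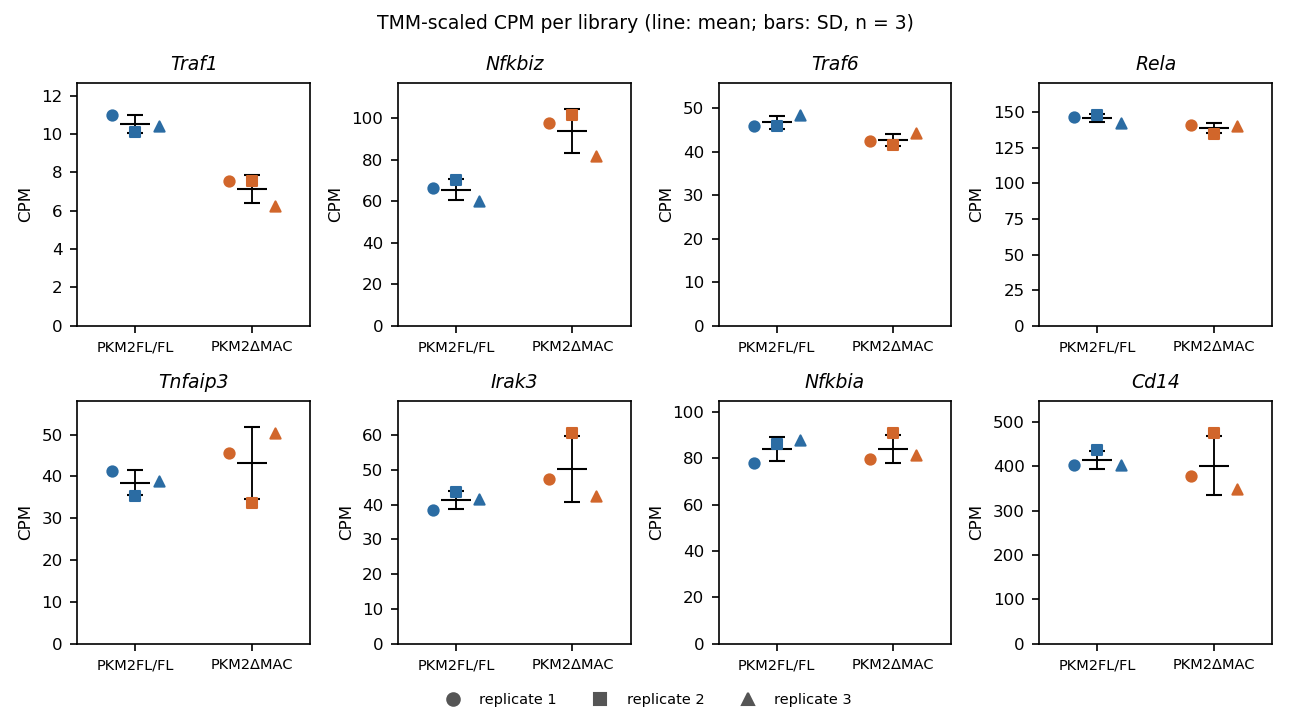
TMM-scaled CPM of 8 members in each library, on axes that start at 0. Blue marks PKM2FL/FL and orange PKM2ΔMAC, symbols give the replicate number, and bars the mean and SD of 3 libraries. Traf1 and Nfkbiz are apart between genotypes, Traf6 and Rela are apart by a small step, and Tnfaip3, Irak3, Nfkbia and Cd14 overlap.

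The inhibitors ranged from genes with nearly equal means to the member with the widest spread. Nfkbia, which encodes IκBα and is renewed by NF-κB itself, was the most abundant at 188 TPM. It read 78.2, 86.3 and 88.1 CPM in PKM2FL/FL and 79.8, 91.2 and 81.5 CPM in PKM2ΔMAC. The log2 fold change was 0.00 with an interval of -0.15 to 0.15. Nfkbib and Nfkbie, the genes of IκBβ and IκBε, had log2 fold changes of -0.05 and 0.01.

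Nfkbiz was the member with the largest positive difference. It encodes IκBζ, a nuclear IκB protein needed for a late set of NF-κB target genes, and lies on the minus strand of chromosome 16 from 55811375 to 55838899. It read 66.2, 70.3 and 60.2 CPM in PKM2FL/FL and 97.9, 102 and 82.0 CPM in PKM2ΔMAC, with no overlap. The level was 43.3% higher, with an interval of 23.1% to 66.7%, and the log2 fold change was 0.52 (SE 0.092, unadjusted p = 0.0008, edgeR adjusted p = 0.111, exact permutation p = 0.10). DESeq2 gave an adjusted p of 5.22e-05 and edgeR without PKM2ΔMAC replicate 3 gave 0.00756 at a fold change of 0.61. Without PKM2ΔMAC replicate 2 the log2 fold change was 0.46 with an adjusted p of 0.104. Over all alternatives the adjusted p ran from 5.22e-05 to 0.388 and the fold change from 0.46 to 0.61. In GENCODE M21 no exon of another gene overlaps those of Nfkbiz, Traf1 or Traf6.

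The other nuclear IκB genes did not stand apart in this way. Nfkbid, which encodes IκBNS, read 14.9, 15.4 and 15.8 CPM in PKM2FL/FL and 15.6, 16.8 and 20.5 CPM in PKM2ΔMAC. Replicate 1 of PKM2ΔMAC lay inside the control range, and the interval of the log2 fold change of 0.19 was -0.04 to 0.43. Bcl3 read 36.6 to 41.4 and 35.5 to 40.1 CPM.

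Tnfaip3 encodes A20, an enzyme that edits ubiquitin chains and ends NF-κB signalling. It read 41.3, 35.4 and 38.9 CPM in PKM2FL/FL and 45.5, 33.7 and 50.5 CPM in PKM2ΔMAC. Replicate 2 of PKM2ΔMAC was the lowest of all 6 libraries and the other 2 were the highest, so the genotypes overlapped (log2 fold change 0.17, SE 0.153, edgeR adjusted p = 0.794). Without replicate 2 the log2 fold change was 0.32 with an adjusted p of 0.0493, so this library decides the call. Without PKM2ΔMAC replicate 3 the log2 fold change was 0.040 (edgeR adjusted p = 0.949). The other regulators of ubiquitin, Tnip1 and Cyld, had log2 fold changes of -0.03 and -0.01. Tollip, which binds IRAK1, had -0.05.

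The TNF receptor genes were among the most abundant members. Tnfrsf1a, which encodes TNFR1, read 226, 223 and 222 CPM in PKM2FL/FL and 209, 222 and 226 CPM in PKM2ΔMAC, with a log2 fold change of -0.03 and an interval of -0.12 to 0.07. Tnfrsf1b, which encodes TNFR2, varied more within genotypes. It read 764, 650 and 719 CPM against 775, 582 and 790 CPM, and the log2 fold change of 0.01 had an interval of -0.30 to 0.32.

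The log2 fold changes of the 11 members with a κB consensus match upstream ran from -0.04 to 0.19 with a median of 0.0058, and for 0 of them were the genotypes apart. In the 24 members without a match the range was -0.56 to 0.28 with a median of -0.017, and 3 were apart (Rela, Traf1 and Traf6). The genotypes were apart for 17.2% of all genes tested, and nothing is read from either count. Neither Nfkbiz, Unc93b1, Ticam2 nor Ikbkb had a stretch to search.

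PKM2ΔMAC replicate 2, which stood apart in its counts over all genes, had the highest value of the 6 libraries for 14 members and the lowest for another 14. Highest values included Myd88, Cd14, Irak3 and Nfkbia, and lowest values Tnfaip3, Tnfrsf1b, Ticam1 and Rela. Without it the members' median log2 fold change was 0.0018, 2 members were called (Traf1 and Tnfaip3) where 1.77% of all genes were, and the genotypes did not overlap for 15 members, where 31.3% of all genes did not.

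Genes around the members were followed in 4 lists. Of 12 Toll-like receptor genes, 10 were tested and 2 were called, both higher in PKM2ΔMAC, where 0.285% of all genes were. Tlr7, a receptor for single-stranded RNA, rose from 356, 390 and 374 CPM to 671, 781 and 606 CPM (log2 fold change 0.88, SE 0.090, edgeR adjusted p = 0.00953). Its adjusted p was 0.0742, 0.0639 and 0.0993 when PKM2FL/FL replicate 1, 2 or 3 was left out, and 0.0732 with limma-trend on log2(TPM + 1) with no filter. Tlr8 rose from 277, 273 and 277 CPM to 569, 499 and 566 CPM (log2 fold change 0.98, SE 0.056, edgeR adjusted p = 0.000102). Tlr1, named after its values were seen, was also called without PKM2ΔMAC replicate 2 (log2 fold change 0.28, edgeR adjusted p = 0.00941), against 0.19 and an adjusted p of 0.490 over all 6 libraries. Tlr7 and Tlr8 depend on the chaperone of Unc93b1, which differed by 0.04. Tlr4, the receptor for LPS, is given for its role and not by the naming rule. It read 118, 131 and 125 CPM in PKM2FL/FL and 117, 125 and 118 CPM in PKM2ΔMAC, with a log2 fold change of -0.06 and an interval of -0.17 to 0.05.

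Of 28 further kinases, ubiquitin ligases and deubiquitinases of the pathway, all were tested and 0 were called (3 at an unadjusted p under 0.05), with a median log2 fold change of -0.01. Otulin, the highest of them in TPM, cleaves linear ubiquitin chains and read 59.1 to 64.9 CPM over all libraries. Of 17 genes of the MAP kinase branch, 0 were called (1 at an unadjusted p under 0.05), with a median of 0.02, and Mapkapk2, the highest in TPM, read 355 to 421 CPM. Of 24 NF-κB target genes, 23 were tested and 0 were called with edgeR (4 at an unadjusted p under 0.05, 2 in each direction). Their median log2 fold change was 0.12 and the range -0.48 to 1.01. The list includes Nos2, Il12b, Il6 and Il1b, whose low levels in these libraries are given above. Tnfaip2, the highest in TPM, read 372, 335 and 386 CPM in PKM2FL/FL and 330, 305 and 349 CPM in PKM2ΔMAC. For these 3 lists DESeq2 also called 0 genes. Without PKM2ΔMAC replicate 2, edgeR called Peli2 (log2 fold change -0.24, adjusted p = 0.0200), Tbkbp1 (-0.20, 0.0450) and, among the target genes, Ccl3 (-0.27, 0.0468), named here after their values were seen.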

How the data were processed

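RNA of 6 BMDM cultures was sequenced by the authors, from total RNA and a SMARTer library kit per the labels. Tables were deposited, holding counts by gene symbol with no normalization and TPM of the same 23935 symbols, which sum to 999626 to 999691 per library. The submitters' processing notes name FastQC 0.12.1, Trim Galore 0.6.10, HISAT2 2.2.1, SAMtools 1.19.2, Subread 2.0.6 and mm10. The annotation, the use of strand and any filter are not given in the sources used here. Table columns were matched to libraries by genotype and mouse number.

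Counts were fitted with edgeR 4.0.16 in R 4.3.3 (robust quasi-likelihood test, TMM factors, filterByExpr, genotype as the term) over 16516 genes, with Benjamini-Hochberg adjustment over all of them and calls at an adjusted p under 0.05. Intervals are 95% and use the SE and degrees of freedom of that fit. Exact permutation tests, two-sided, used log2(CPM + 0.1) and cannot go below 0.10. At these totals 3 counts, the limit a count of 0 allows, equal 0.0546 to 0.0604 CPM, for counting error only. P-values measure the spread between libraries, which holds counting error as well as any difference between mice or cultures. In simulated counts, 200 of 16516 genes were changed by a log2 fold of 1. Of these edgeR recovered 69% with 13 false calls, DESeq2 75% with 35 and limma-trend 70% with 16. No simulated library was made to stand apart, and every member's fold change was smaller, so recovery of changes of their size was not measured.

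Values in every library are given for members called, members whose genotypes did not overlap, the 3 with the smallest p in each direction, and the highest and lowest TPM of each role, and for some others chosen after values were seen. Of the further lists, called genes and the highest by TPM are named. The members and lists were chosen with earlier results of these data known. Results were recomputed with DESeq2 1.42.0, with upper-quartile or RLE scaling, other count filters, non-robust estimation, a replicate block, leaving out each library, and with limma-trend (limma 3.58.1) on log2 of TPM + 1 or + 0.1. Gene positions are from GENCODE M21 on GRCm38, and upstream sequences from RefSeq on GRCm38.p6.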

Additional observations from a re-analysis of the deposited data

How the results depend on the processing

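No alternative reversed the sign of Traf1 or Nfkbiz, and none called a member other than Traf1, Nfkbiz or Tnfaip3. The number of members called, 0 with edgeR, was 2 with DESeq2, 1 with no filter on low counts (Traf1, log2 fold change -0.56) and 0 to 2 when single libraries were left out (1 without PKM2ΔMAC replicate 3, 2 without PKM2ΔMAC replicate 2). Of all genes, 1.83% were called with DESeq2, 0.501% with no filter, 0.475% without PKM2ΔMAC replicate 3 and 1.77% without PKM2ΔMAC replicate 2. The number of all genes called, 68, was 302 with DESeq2, 120 with no filter, 41, 34 and 36 with limma-trend on log2(TPM + 1), log2(TPM + 0.1) and log2(TPM + 1) unfiltered, and 22 to 299 without single libraries. Members whose genotypes did not overlap, 7 on CPM, numbered 11 on TPM, where 22.1% of genes did not, and 9 to 15 without single libraries, where 2 libraries face 3 and 25.0% to 31.3% of genes did not. The members' median log2 fold change, 0.0033, was 0.073, 0.075 and 0.073 in the TPM fits, where the median of all genes was 0.063, 0.067 and 0.046, and -0.0022 to 0.019 without single libraries. The cause of these differences was not tested.

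Some fold changes near 0 changed sign, 16 of the 45 from negative to positive in each TPM fit, with the shift of all genes given above. In the same order of fits, those of members named by rule were Irak1 (0.036, 0.037, 0.036), Tab3 (0.0027, 0.0031, 0.0027), Ikbkb (0.011, 0.011, 0.011), Rela (0.00045, 0.00045, 0.00045) and Tnfrsf1a (0.043, 0.043, 0.043). Nfkbia was -0.00075 with DESeq2, -0.00076 with RLE normalization and -0.0018 with no filter. Without single libraries the ranges were -0.068 to 0.0018 for Irak1, -0.061 to 0.037 for Nfkbia, -0.052 to 0.0036 for Tnfrsf1a and -0.067 to 0.14 for Tnfrsf1b. Without PKM2ΔMAC replicate 2, 12 of the 45 members changed sign, 5 to positive and 7 to negative.

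No label pairs the replicate numbers of the 2 genotypes, and whether same-numbered libraries shared a batch is not given in the sources used here. Deviations of same-numbered libraries correlated by 0.011 to 0.12, and 5 of 6 libraries correlated best with their own number. With the replicate block 82 genes and 1 member were called, Nfkbiz (log2 fold change 0.52, adjusted p = 0.00285), and Nfkbia was -0.00054 and Tnfrsf1b -0.00046. The lowest count of any member in a library was 311, for Traf1, and counting error was not separated from the spread between mice.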
